A study of Mus musculus with 16 samples.

Results

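The 6 genes described here encode core parts of the plasminogen activation system and the cell-surface trigger of blood clotting. They are Plau (urokinase), Plat (tissue plasminogen activator), Plaur (the urokinase receptor), Serpine2 and Serpinb2 (inhibitors of the activators) and F3 (tissue factor). They were taken by symbol from a table of raw counts with 55487 mouse gene IDs, and each symbol matched 1 ID, so the members are 6 of 55487 genes. The members, and the gene lists set beside them, were chosen with earlier results of these data known. Bulk RNA sequencing had been run on 16 libraries of mouse skin cells, taken 6 h after hypobaric pressure had stretched the skin or from unstretched skin of the same size. Cells had been sorted by CD45, a surface protein of leukocytes, into a CD45- (stromal) and a CD45+ (immune) fraction. The 4 groups of 4 libraries were stromal stretched (libraries 5, 6, 7 and 8), stromal control (1, 2, 3 and 4), immune stretched (1, 2, 7 and 8) and immune control (3, 4, 5 and 6). The labels give no strain, genotype, sex, age, animal or batch, and do not say whether the libraries came from separate animals. The p-values therefore measure only the spread between these samples, which may be technical.

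Urokinase and tissue plasminogen activator are proteases that cleave plasminogen, an inactive protein made mainly in the liver, into plasmin, which digests fibrin and parts of the extracellular matrix. The urokinase receptor holds urokinase at the cell surface, and serpins end the activity of both proteases by forming a tight complex with them. Tissue factor is the membrane receptor for factor VIIa and starts the clotting reactions that lay down the fibrin on which plasmin later acts. In skin, these genes are known for their part in wound closure, cell migration and the turnover of provisional matrix.

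Depth was 21955174 to 26944965 reads per library in stromal stretched and 13563586 to 20467010 in stromal control, and 7018743 to 20095580 in immune stretched and 2645421 to 6662268 in immune control. In each fraction the stretched libraries were all deeper than the controls. The leukocyte gene Ptprc, which encodes CD45, was at 389 to 702 CPM (a gene's reads relative to the library total, TMM-scaled) in immune stretched and 206 to 611 CPM in immune control libraries, against 0.917 to 3.37 CPM in stromal stretched and 0.0644 to 1.30 CPM in stromal control libraries. Immune control 4, the shallowest library, and stromal stretched 7 and 8 had 32977 to 35821 genes with a read, against 20429 to 25955 in the other 13. Immune stretched 2 had a summed level of 6 neutrophil markers (S100a8, S100a9, Retnlg, Csf3r, Cxcr2 and Ly6g) of 48046 CPM, against 144 to 9831 CPM in the other 7 immune libraries. These 4 libraries stood apart from the rest, and the values of the 6 genes in the stretch comparisons, and of the list genes named there, are also given without them.

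On the mouse assembly GRCm38, Plau lies at chr14:20836660-20843385, Plat at chr8:22757727-22782844, Plaur at chr7:24462484-24475968, Serpine2 at chr1:79794197-79861180, Serpinb2 at chr1:107511423-107535478 and F3 at chr3:121723537-121735048. Serpine2 is on the minus strand and the other 5 are on the plus strand. All 6 are protein-coding genes, with 2891 reads for Plau over the 16 libraries and 12248 to 114959 for each of the other 5. Serpinb2 overlaps Serpinb10 on the same strand, and that gene had 401 reads where Serpinb2 had 12248. None of the other 5 overlaps an annotated gene. RefSeq promoter windows (GRCm38.p6, 250 bases before to 50 after the start of transcription) were at hand for Plaur, Serpine2, Serpinb2 and F3. The 2 windows printed belong to F3 and Plaur. They were picked as the only members whose immune stretched libraries all lay above the immune control libraries, though neither passed the edgeR test there. The letters of the AP-1 motif TGAGTCA are set in capitals in each. Both windows run 5′ to 3′ on the plus strand.
F3, chr3:121723287-121723586: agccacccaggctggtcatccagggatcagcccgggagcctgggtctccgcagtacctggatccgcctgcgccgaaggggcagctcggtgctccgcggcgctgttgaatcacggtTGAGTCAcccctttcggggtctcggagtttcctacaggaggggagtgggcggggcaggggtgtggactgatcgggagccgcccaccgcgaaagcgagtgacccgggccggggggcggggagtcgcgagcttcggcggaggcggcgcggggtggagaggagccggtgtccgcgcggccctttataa
Plaur, chr7:24462233-24462532: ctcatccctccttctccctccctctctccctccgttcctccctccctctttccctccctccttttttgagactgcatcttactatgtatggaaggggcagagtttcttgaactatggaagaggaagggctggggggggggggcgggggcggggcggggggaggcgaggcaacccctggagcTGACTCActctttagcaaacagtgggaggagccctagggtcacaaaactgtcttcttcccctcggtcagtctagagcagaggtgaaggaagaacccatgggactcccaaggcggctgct
In F3 the motif begins 135 bases before the start on the gene's own strand. In Plaur its reverse complement begins 69 bases before the start. TGAGTCA, searched on both strands, was in 5.2% of the 32851 RefSeq windows of this length, and was not found in that of Serpine2. The GC box letters GGGCGG were in 35.7% of the windows, and were found in those of F3, Plaur and Serpine2. Letters of the Egr motif, GCGGGGGCG, which overlaps GC box letters, were in 2.91% of windows, and were found in those of Plaur and Serpine2. Serpinb2 has 2 overlapping windows, and both held neither TGAGTCA nor GGGCGG. The same TATAAA letters lay in both, beginning 29 and 116 bases before their respective starts. TATAAA, searched on both strands, was in 13.6% of windows, and in the F3 window it lay on the opposite strand, 44 bases after the start. A match of letters is a description of these windows and was not tied to the binding of any factor.

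Between the fractions, the 6 genes took different sides. Plat, Serpine2 and F3 were lower in immune than in stromal cells, in stretched and in control skin, while Plaur was higher in immune cells in both. Plau was called higher in immune cells in control skin only, and Serpinb2 was not called in either. In stretched skin 1 gene was called higher and 3 lower of the 6 (edgeR's quasi-likelihood test, with an adjusted p under 0.05 by Benjamini-Hochberg), where 49% of all 17116 genes tested were called, 23.9% higher and 25.1% lower. In control skin 2 were called higher and 3 lower, where 49.4% of all 15142 genes tested were called, 26.6% higher and 22.8% lower. Immune and stromal libraries did not overlap for 4 of 6 members in stretched skin (48.3% of all genes) and for 3 of 6 in control skin (47.9%). The members' median log2 fold change, immune over stromal, was -0.62 in stretched skin and -0.72 in control skin, against -0.06 and 0.09 over all genes tested. In bulk samples, fewer cells of a type and less RNA per cell cannot be told apart.

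**Figure D1:**
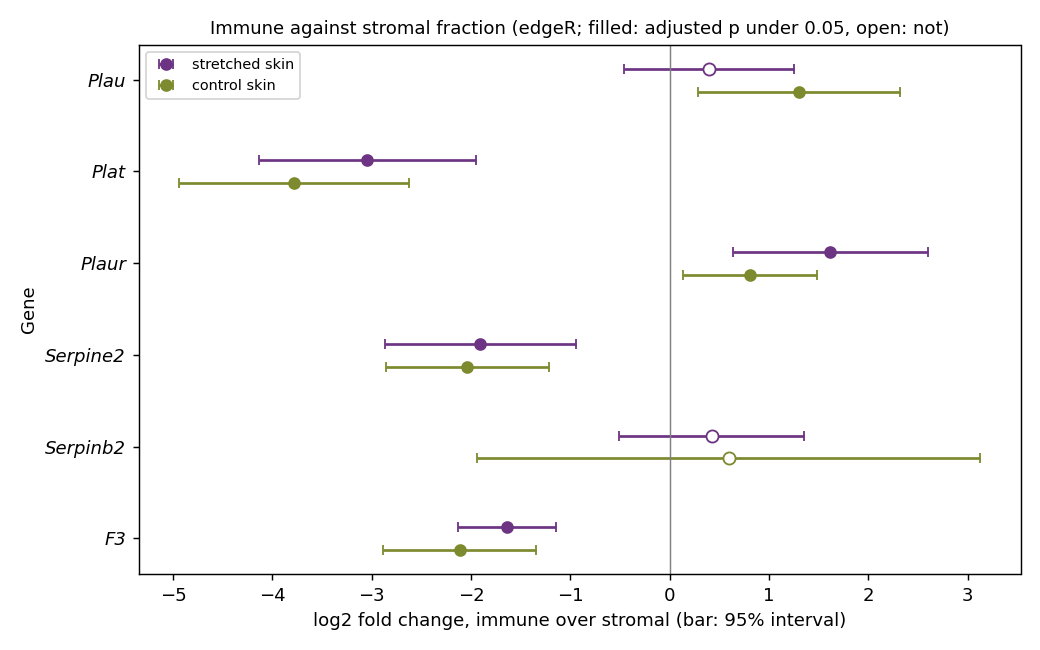
The log2 fold change of each gene, immune over stromal, in stretched and control skin (edgeR, 4 libraries a group, bars are 95% intervals, filled points passed adjusted p under 0.05). Plat, Serpine2 and F3 lie left of 0 in both, Plaur right of 0 in both, and the widest interval is that of Serpinb2 in control skin.

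Fewer members were called after stretching than between the fractions. In the stromal fraction 0 of the 6 genes were called by edgeR, where 4.98% of all 16074 genes tested were called. There 1 member, F3, had an unadjusted p under 0.05, as did 26.8% of all genes. DESeq2 also called 0 members, where it called 2312 of all genes. In the immune fraction 0 of 6 were called by edgeR, as were 0% of all 14183 genes tested. DESeq2 called 1 member there, F3, where it called 781 of all genes. Unadjusted p was under 0.05 for 4 of the 6 immune members (Plaur, Plat and F3 with positive and Plau with negative values), against 17.4% of all genes, 8.89% with positive and 8.5% with negative values. Stretched and control libraries did not overlap for 0 of 6 members in the stromal fraction (18% of all genes there) and for 2 of 6, Plaur and F3, in the immune fraction (11.5% of all genes there). Both were higher in stretched libraries, as were 8.62% of all genes tested there. The median log2 fold change of the members was 0.19 in stromal and 0.66 in immune cells, against 0.01 and -0.02 over all genes. Because the members were chosen with earlier results of these data known, these counts and medians describe them and do not test the set. The difference between the immune and the stromal stretch effect was called by edgeR and by DESeq2 for 0 of 6 members, with 0 at an unadjusted p under 0.05. For that difference, 0% of all 18295 genes tested were called by edgeR and 23.1% had an unadjusted p under 0.05. DESeq2 called 1625 of all genes for it.

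**Figure D2:**
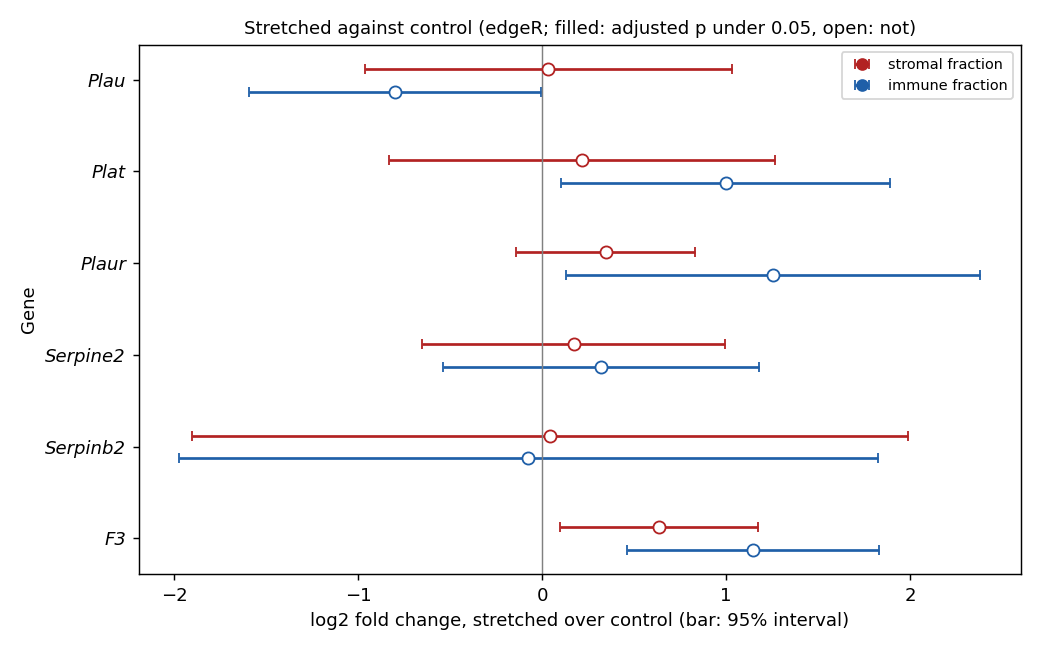
The log2 fold change of each gene, stretched over control, in the stromal and immune fraction (edgeR, 4 libraries a group, bars are 95% intervals, open points did not pass adjusted p under 0.05). No point is filled. The intervals of F3 in both fractions and of Plaur and Plat in the immune fraction lie above 0, and that of Plau in the immune fraction lies just below 0.

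**Figure D3:**
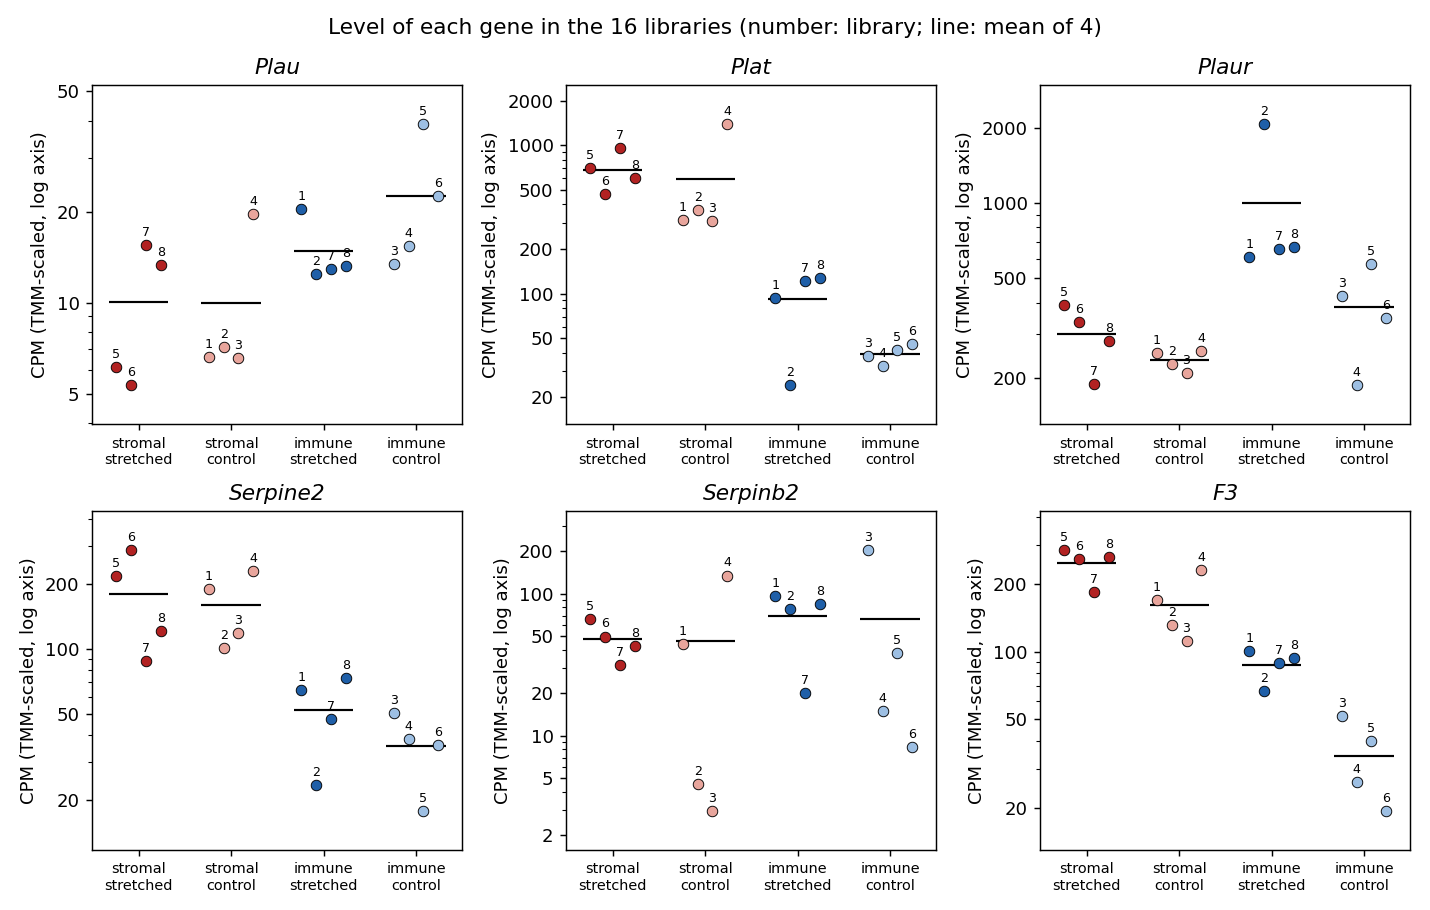
CPM (TMM-scaled, log axis) of each gene in the 16 libraries, by group, with the library number above each point and a line at the mean of 4. Stromal control library 4 is the highest of its group for all 6 genes, and immune stretched library 2 stands far above the others for Plaur at 2073 CPM.

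Plau, the urokinase gene, was the lowest of the 6 per length of transcript in the stromal groups, at 4.26 ± 2.16 CPM per kb in stromal stretched and 4.21 ± 2.72 CPM per kb in stromal control libraries (SD, n = 4 each). Its level was 6.10, 5.34, 15.5 and 13.4 CPM in stromal stretched libraries 5, 6, 7 and 8, against 6.61, 7.11, 6.57 and 19.6 CPM in stromal control libraries 1, 2, 3 and 4. Each of these groups thus had both low and high libraries, and their ranges overlapped. This gave a log2 fold change of 0.03 ± 0.45 (SE, 95% interval -0.96 to 1.03, edgeR adjusted p = 0.970), and without stretched 7 and 8 it was -0.82 (adjusted p = 0.527). In the immune fraction Plau stood at 20.4, 12.5, 12.9 and 13.3 CPM in stretched libraries 1, 2, 7 and 8, against 13.4, 15.4, 39.0 and 22.5 CPM in control libraries 3, 4, 5 and 6. Stretched 2, 7 and 8 were below every control, but stretched 1 was above 2 of the controls, so the ranges overlapped. Stretched over control, the log2 fold change was -0.80 ± 0.36 (95% interval -1.59 to -0.01) and did not pass the test (edgeR adjusted p = 0.284). Without stretched 2 and control 4 it was -0.84 (adjusted p = 0.276).

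Set against the stromal fraction, Plau in control skin averaged 22.6 ± 11.6 CPM in immune and 9.98 ± 6.43 CPM in stromal libraries (SD, n = 4 each), a log2 fold change of 1.30 ± 0.46 (edgeR adjusted p = 0.0363). These groups overlapped through stromal control 4. The call was lost in 5 of the 8 fits that left out 1 library (stromal control 1, 2 or 3, or immune control 5 or 6), which gave 0.86 to 1.27 (adjusted p from 0.0715 to 0.146). In stretched skin the means were 14.8 ± 3.80 CPM in immune and 10.1 ± 5.12 CPM in stromal libraries, and the log2 fold change of 0.40 (95% interval -0.46 to 1.25) did not pass the test (adjusted p = 0.407). Without stromal stretched 7 and 8 and immune stretched 2 it was 1.35 and passed (adjusted p = 0.0101). The order of the 4 group means was immune control, immune stretched, stromal stretched and stromal control, and each neighbouring pair overlapped.

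Plat, the tissue plasminogen activator gene, had the widest gap between the fractions of the 6. In stretched skin it averaged 91.7 ± 47.4 CPM in immune and 683 ± 207 CPM in stromal libraries (SD, n = 4 each), a log2 fold change of -3.04 ± 0.49 (edgeR adjusted p = 0.000920). In control skin it averaged 39.4 ± 5.74 CPM in immune and 594 ± 530 CPM in stromal libraries, a log2 fold change of -3.78 ± 0.53 (adjusted p = 0.000198). No immune library reached the lowest stromal one in either, and both calls held in all 16 alternatives run for each. The mean immune level was 13.4% of the stromal one in stretched skin and 6.64% in control skin. The summed level of 6 fibroblast markers (Col1a1, Col1a2, Col3a1, Pdgfra, Dcn and Lum) in the immune libraries was 13.8% of that in the stromal libraries in stretched skin and 7.4% in control skin. Whether fibroblast RNA in the sorted immune cells has a part in the Plat level there was not tested.

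With stretching, stromal Plat was at 704, 467, 957 and 605 CPM in stretched libraries 5, 6, 7 and 8, against 314, 367, 307 and 1388 CPM in control libraries 1, 2, 3 and 4. All 4 stretched libraries lay above controls 1, 2 and 3 and below control 4, which was the highest stromal library for this gene. With all 8 libraries the log2 fold change was 0.22 ± 0.48 (SE, 95% interval -0.83 to 1.27, edgeR adjusted p = 0.807). Without control 4 it was 1.09 and passed the test (adjusted p = 0.0495), and without stretched 7 and 8 it was -0.03 (adjusted p = 0.990). In immune cells Plat stood at 93.0, 24.3, 123 and 127 CPM in stretched libraries 1, 2, 7 and 8, against 37.9, 32.4, 41.4 and 46.0 CPM in control libraries 3, 4, 5 and 6. Of the stretched libraries, 1, 7 and 8 were above every control and library 2 was below all of them. This came to a log2 fold change of 0.998 ± 0.403 (95% interval 0.10 to 1.89, adjusted p = 0.250), and 1.31 without stretched 2, where it passed (adjusted p = 0.0469). Without stretched 2 and control 4 it was 1.30 and did not pass (adjusted p = 0.0658). The fibroblast marker sum in the same immune libraries was 7864, 1958, 9305 and 10055 CPM in stretched 1, 2, 7 and 8, against 6975, 2832, 1478 and 2549 CPM in control 3, 4, 5 and 6. Stretched library 2, the lowest for Plat, was also the lowest stretched library for the marker sum, and the part of these cells in the Plat difference was not tested.

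**Figure D4:**
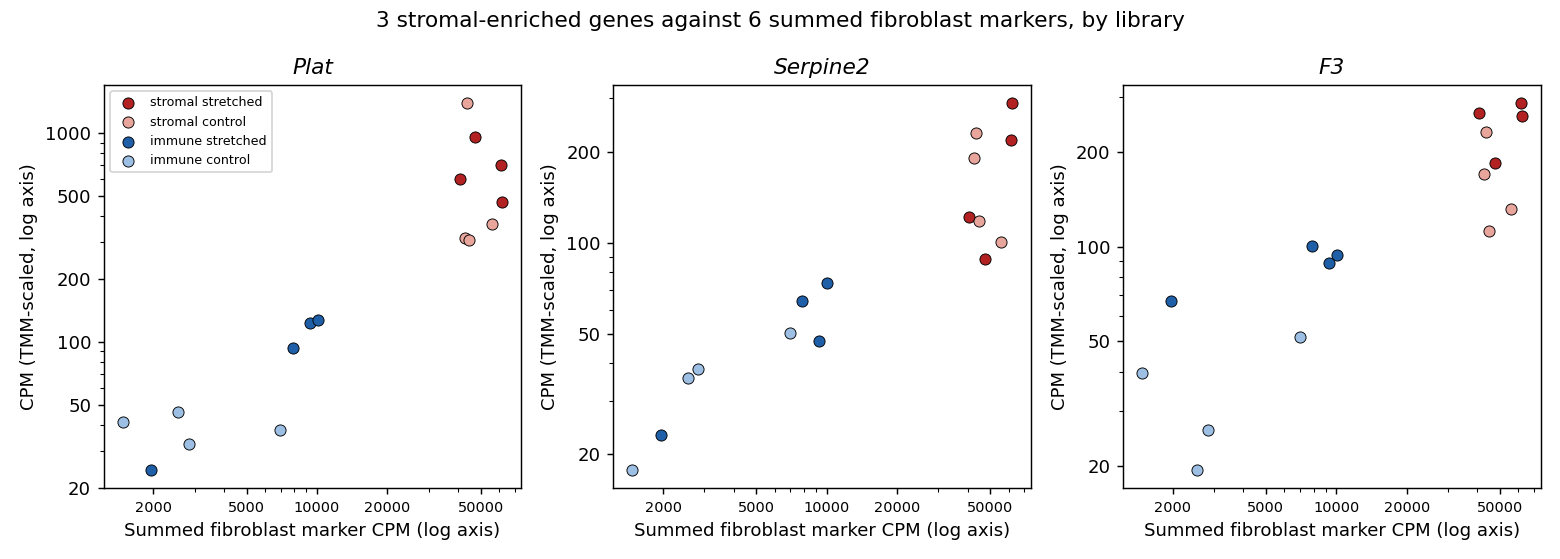
CPM of Plat, Serpine2 and F3 against the summed CPM of 6 fibroblast markers in the 16 libraries (both axes log). The 8 immune libraries lie between 1478 and 10055 CPM of the markers and the 8 stromal ones between 40726 and 61841 CPM. F3 in immune stretched library 2 was 67.1 CPM at 1958 CPM of the markers, and in immune control library 3 it was 51.8 CPM at 6975 CPM.

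Plaur, the receptor that binds urokinase at the cell surface, was the member with the highest level per length in the immune fraction, at 382 ± 273 CPM per kb in stretched libraries and 146 ± 60.7 CPM per kb in control libraries (SD, n = 4 each). In immune cells it stood at 610.2, 2073, 654 and 666 CPM in stretched libraries 1, 2, 7 and 8, against 427, 188, 569 and 349 CPM in control libraries 3, 4, 5 and 6. Every stretched library lay above every control, 3 of them close together and library 2 far above. Plaur had a log2 fold change of 1.26 ± 0.51 (SE, 95% interval 0.13 to 2.38) and did not pass the test (edgeR adjusted p = 0.250). Without stretched 2 it was 0.55 (adjusted p = 0.366), and without control 4 as well it was 0.36 (adjusted p = 0.446). The neutrophil marker sum was 48046 CPM in stretched 2, and 808, 265 and 144 CPM in stretched 1, 7 and 8, against 6672, 1453, 9831 and 434 CPM in control 3, 4, 5 and 6. Among the controls, the libraries with the highest neutrophil sums, 5 and 3, had the highest Plaur, while stretched 1, 7 and 8 had neutrophil sums below those of 3 of the 4 controls. A sum of 7 macrophage and monocyte markers (Adgre1, Csf1r, Cd68, Cd14, Ly6c2, Ccr2 and Mrc1) also stood apart in stretched 2, at 19586 CPM, against 6701, 4176 and 4368 CPM in stretched 1, 7 and 8 and 3112, 1460, 5571 and 3151 CPM in control 3, 4, 5 and 6. In stretched 2, Cd14 alone was at 17223 CPM. Adgre1, Csf1r and Mrc1 were lowest there among the immune stretched libraries, at 71.6, 105 and 208 CPM. The macrophage and monocyte sum was highest in control 5 and lowest in control 4 among the controls, as was Plaur. The part of these cells in the Plaur values was not tested.

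Stromal Plaur was 392, 334, 189 and 280.2 CPM in stretched libraries 5, 6, 7 and 8, against 251, 228, 209 and 257 CPM in control libraries 1, 2, 3 and 4. Stretched libraries 5, 6 and 8 were above all controls and library 7 was below all of them. Its log2 fold change of 0.35 ± 0.22 (95% interval -0.14 to 0.83) did not pass (edgeR adjusted p = 0.343), and it was 0.60 without stretched 7 and 8 (adjusted p = 0.285). Between the fractions, Plaur averaged 1001 ± 715 CPM in immune stretched and 299 ± 86.1 CPM in stromal stretched libraries with no overlap, a log2 fold change of 1.62 ± 0.44 (adjusted p = 0.0128). That fold change was 0.74 without stromal stretched 7 and 8 and immune stretched 2, and still passed (adjusted p = 0.0253). In control skin the means were 383 ± 159 CPM in immune and 236 ± 22.1 CPM in stromal libraries, which overlapped, and the log2 fold change was 0.81 ± 0.31 (adjusted p = 0.0475). That call held in 1 of the 8 fits that left out 1 library, the one without immune control 4, and was lost without any other library (0.51 to 0.83, adjusted p from 0.0779 to 0.196). The order of the group means was immune stretched, immune control, stromal stretched and stromal control, of which only the first neighbouring pair did not overlap.

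Serpine2, a secreted serpin that inhibits thrombin and both plasminogen activators, was lower in immune than in stromal cells. In stretched skin it averaged 52.1 ± 22.1 CPM in immune and 179.7 ± 91.7 CPM in stromal libraries (SD, n = 4 each), a log2 fold change of -1.90 ± 0.43 (edgeR adjusted p = 0.00524). In control skin it averaged 35.5 ± 13.4 CPM in immune and 160.1 ± 61.1 CPM in stromal libraries, a log2 fold change of -2.04 ± 0.37 (adjusted p = 0.00109). The fractions did not overlap in either. The immune level was 29.0% of the stromal one in stretched and 22.2% in control skin, above the 13.8% and 7.4% of the fibroblast marker sum. With stretching, stromal Serpine2 was 219, 289, 88.3 and 122 CPM in stretched libraries 5, 6, 7 and 8, against 191, 100.7, 118 and 231 CPM in control libraries 1, 2, 3 and 4. High and low libraries occurred in both groups, and the log2 fold change was 0.17 ± 0.38 (95% interval -0.65 to 0.996, adjusted p = 0.806). Without stretched 7 and 8, the lowest 2 stretched libraries, it was 0.66 (adjusted p = 0.444). In immune cells it was 64.3, 23.3, 47.4 and 73.6 CPM in stretched libraries 1, 2, 7 and 8, against 50.3, 38.3, 17.8 and 35.7 CPM in control libraries 3, 4, 5 and 6. These groups overlapped, and the log2 fold change of 0.32 ± 0.39 (95% interval -0.54 to 1.18) did not pass (adjusted p = 0.684). It was 0.68 without stretched 2 and control 4 (adjusted p = 0.308), and ran from 0.08 to 1.37 over the 16 alternatives.

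Serpinb2, an inhibitor of urokinase that stays largely inside cells and is known in macrophages and keratinocytes, had the widest spread of the 6 relative to its mean between control libraries, with a coefficient of variation of 139% in immune and 132.5% in stromal controls. It was at 66.4, 49.8, 31.6 and 42.4 CPM in stromal stretched libraries 5, 6, 7 and 8, against 43.9, 4.56, 2.96 and 134 CPM in stromal control libraries 1, 2, 3 and 4. The stretched libraries were close together, while controls 2 and 3 were far below and control 4 far above them. The log2 fold change of 0.04 ± 0.89 (SE) had a 95% interval from -1.90 to 1.99 (edgeR adjusted p = 0.980), and it was 1.53 without control 4 (adjusted p = 0.219) and 0.32 without stretched 7 and 8 (adjusted p = 0.941). Over the 16 alternatives it ran from -0.28 to 2.53. In immune cells it was 96.4, 77.2, 20.1 and 84.7 CPM in stretched libraries 1, 2, 7 and 8, against 203, 14.9, 38.2 and 8.34 CPM in control libraries 3, 4, 5 and 6. The highest library was a control, and the other 3 controls were below 3 of the stretched libraries. This came to a log2 fold change of -0.08 ± 0.86 (95% interval -1.98 to 1.83, adjusted p = 0.974), and 1.57 without control 3 (adjusted p = 0.228). It was -0.48 without stretched 2 and control 4 (adjusted p = 0.804). The summed level of 6 keratinocyte markers was 2028 CPM in immune control 3, the highest of the 16 libraries, but in stromal control 4 it was 154 CPM, the lowest of the 8 stromal ones. Between the fractions, Serpinb2 averaged 69.6 ± 33.9 CPM in immune stretched and 47.6 ± 14.6 CPM in stromal stretched libraries (log2 fold change 0.42, adjusted p = 0.418). In controls it averaged 66.2 ± 92.2 CPM in immune and 46.3 ± 61.4 CPM in stromal libraries (log2 fold change 0.60, adjusted p = 0.691). All 4 groups overlapped one another.

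F3, the tissue factor gene, had the smallest p of the 6 in both stretch comparisons, without passing the adjusted threshold in either. In immune cells it stood at 100.6, 67.1, 88.7 and 93.7 CPM in stretched libraries 1, 2, 7 and 8, against 51.8, 26.2, 39.7 and 19.5 CPM in control libraries 3, 4, 5 and 6. Every stretched library was above every control. The log2 fold change was 1.15 ± 0.31 (SE, 95% interval 0.46 to 1.83, edgeR adjusted p = 0.161), and the gene ranked 327 of 14183 by p. DESeq2 called it (1.11, adjusted p = 0.0307), as did edgeR with all 16 libraries in 1 fit (1.34, adjusted p = 0.0267). Without stretched 2 and control 4 the value was 1.19 (adjusted p = 0.109). Over the 16 alternatives it ran from 0.90 to 1.71, with adjusted p from 0.0267 to 0.435. The fibroblast marker sum, given with Plat, was lowest among the stretched libraries in library 2, as was F3. Among the controls it was highest in control 3, at 6975 CPM, as was F3. The lowest control sum was in control 5, at 1478 CPM, and the lowest control F3 in control 6. The part of fibroblast RNA in the F3 values was not tested. Dendritic cell marker sums (Cd209a, Mgl2, Flt3, Itgax, H2-Ab1 and Cd74) also did not overlap, at 19585 to 45747 CPM in immune stretched and 3712 to 14432 CPM in immune control libraries. Of these markers only H2-Ab1 and Cd74, with means of 12974 and 18190 CPM in immune stretched libraries, did not overlap. Cd209a, Mgl2, Flt3 and Itgax did overlap. The part of dendritic cells in the F3 and Plaur values was not tested.

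In the stromal fraction F3 was at 286, 260, 185 and 265 CPM in stretched libraries 5, 6, 7 and 8, against 169.8, 132, 112 and 232 CPM in control libraries 1, 2, 3 and 4. Stretched libraries 5, 6 and 8 were above every control, and only control 4 was above stretched 7. Stromal F3 had a log2 fold change of 0.63 ± 0.24 (SE, 95% interval 0.10 to 1.17, edgeR adjusted p = 0.127). It was 0.88 without control 4, where it passed (adjusted p = 0.0464), and 0.74 without stretched 7 and 8 (adjusted p = 0.324). The test of the difference between the immune and stromal effects gave 0.71 ± 0.42 (95% interval -0.18 to 1.60, adjusted p = 0.320). Between the fractions, F3 averaged 87.5 ± 14.5 CPM in immune stretched and 249 ± 44.0 CPM in stromal stretched libraries (SD, n = 4 each), a log2 fold change of -1.64 ± 0.22 (adjusted p = 0.000316). In control skin it averaged 34.3 ± 14.4 CPM in immune and 161 ± 52.8 CPM in stromal libraries, a log2 fold change of -2.11 ± 0.35 (adjusted p = 0.000568). Neither pair overlapped, and both calls held in all 16 alternatives run for each. The immune level was 35.2% of the stromal one in stretched and 21.2% in control skin, against 13.8% and 7.4% for the fibroblast marker sum.

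For the other 5 genes the difference between the 2 stretch effects, immune minus stromal, was also not resolved. It was 1.03 ± 0.57 for Plaur (SE, edgeR adjusted p = 0.283; -0.09 without the 4 libraries that stood apart), 0.996 ± 0.71 for Plat (adjusted p = 0.414), -0.64 ± 0.63 for Plau (adjusted p = 0.563) and 0.36 ± 0.60 for Serpine2 (adjusted p = 0.758). For Serpinb2 it was 0.03 ± 1.38 (adjusted p = 0.995).

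**Figure D5:**
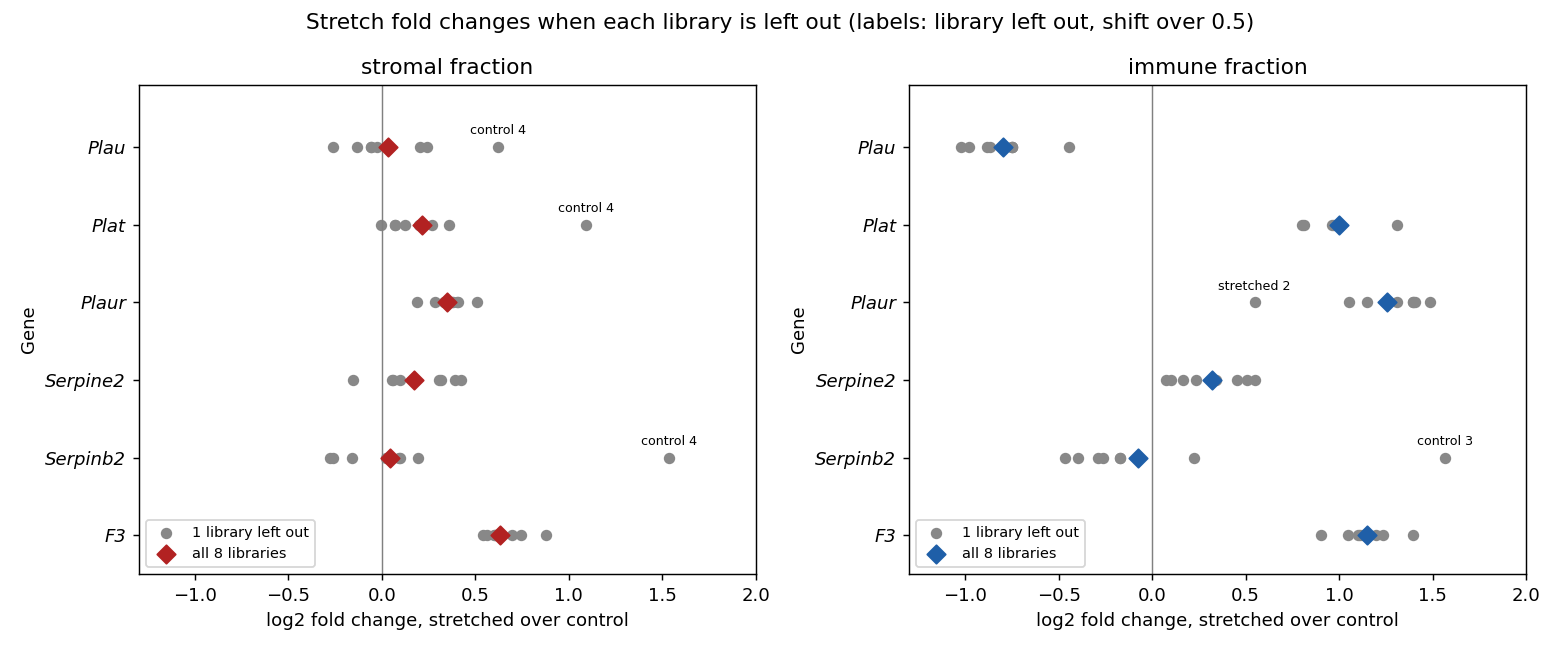
Stretch log2 fold changes (x axis) of the 6 genes when each library in turn is left out (grey) and with all 8 (diamonds), in the stromal and the immune fraction. Leaving out stromal control 4 moves Plau to 0.62, Plat to 1.09 and Serpinb2 to 1.53, and leaving out immune stretched 2 moves Plaur to 0.55.

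Other genes of the plasminogen system were followed as a list of 27 (the substrate, further inhibitors, cell-surface receptors and clearance receptors). Plg, the substrate gene, named after its values were seen, had 29 reads in all 16 libraries together and was not tested. In stromal cells, of 17 genes tested, 1 was called higher and 1 lower after stretching, with 6 at an unadjusted p under 0.05 and a median log2 fold change of -0.14. Lrp8, a lipoprotein receptor, rose, with 3.77 ± 0.564 CPM after stretching, against 1.22 ± 0.468 CPM in controls (SD, n = 4 each), a log2 fold change of 1.63 ± 0.34 (edgeR adjusted p = 0.0424). This call was lost with all 16 libraries in 1 fit (adjusted p = 0.127), with the replicate block, and without stretched 7 and 8 (1.60, adjusted p = 0.267). It was also lost without stretched 6, 7 or 8 or control 1, 2 or 3 alone (adjusted p from 0.0591 to 0.138). Of the 16 alternatives, 10 did not call Lrp8, and adjusted p reached 0.426. Serpinb6a, an intracellular serpin, fell to 397 ± 88.3 CPM in stretched libraries, against 795 ± 179 CPM in controls, a log2 fold change of -0.99 ± 0.24 (adjusted p = 0.0466). It did not pass with all 16 libraries in 1 fit (adjusted p = 0.146), with the replicate block, or without stretched 7 and 8 (-0.81, adjusted p = 0.298). Nor did it pass in any fit that left out 1 library other than stretched 5 (adjusted p from 0.0570 to 0.138). Serpinb6a was not called in 11 of the 16 alternatives, with adjusted p up to 0.4388. Over all genes in this comparison, 4.98% were called and 26.8% had an unadjusted p under 0.05. In immune cells 0 of 18 tested were called by edgeR, with 0 at an unadjusted p under 0.05 and a median of -0.09. Over all genes there, 0% were called and 17.4% had an unadjusted p under 0.05. The smallest p there was that of Anxa2, a surface receptor for plasminogen, at 2340 ± 509 CPM after stretching, against 1229 ± 435 CPM in controls (log2 fold change 0.77, adjusted p = 0.298, and 0.51 without stretched 2 and control 4). For the difference of the stretch effects, 0 of 20 tested were called by edgeR and 6 had an unadjusted p under 0.05, as had 23.1% of all genes.

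Between the fractions, 4 of 19 list genes were called higher and 10 lower in immune than in stromal cells of stretched skin, and 4 of 18 higher and 9 lower in control skin. Over all genes tested, 23.9% were higher and 25.1% lower in stretched skin and 26.6% higher and 22.8% lower in control skin. Higher in both were Itgb2 and Itgam, the chains of the leukocyte integrin that pairs with the urokinase receptor, Plgrkt, a plasminogen receptor, and Lrp8. Lower in both were Lrp1, which clears serpin and protease complexes, Mrc2, Fap, Vtn, Itgb3, Serpina3n and Serpinb6a. In stretched skin Igf2r and St14 were lower too, and in control skin Anxa2.

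Around tissue factor, a list of 27 clotting factors, their brakes and thrombin receptors was followed. In stromal cells 0 of 13 tested were called by edgeR after stretching, with 4 at an unadjusted p under 0.05 and a median log2 fold change of 0.56. The smallest p were those of Pros1, F2r and Fgl2, and these 3 were the list genes whose stretched and control libraries did not overlap. Over all genes tested in this comparison, 26.8% had an unadjusted p under 0.05 and 18% did not overlap. Pros1, the cofactor protein S, was at 396 ± 50.3 CPM after stretching, against 236 ± 52.8 CPM in controls (0.76 ± 0.21, adjusted p = 0.0537, and 0.83 without stretched 7 and 8). F2r, a thrombin receptor, was at 34.4 ± 6.54 CPM in the stretched group, against 12.4 ± 6.26 CPM in controls (1.48 ± 0.41, adjusted p = 0.0552, and 1.63 without stretched 7 and 8). In immune cells 0 of 15 were called by edgeR, with 3 at an unadjusted p under 0.05 and a median of 0.21. Over all genes there, 17.4% had an unadjusted p under 0.05. Procr, the protein C receptor, had 61.7 ± 25.5 CPM after stretching, against 26.1 ± 10.02 CPM in controls (1.05 ± 0.34, adjusted p = 0.197, and 1.15 without stretched 2 and control 4). Fgl2, a membrane prothrombinase, had 900 ± 209 CPM in immune stretched and 421 ± 172 CPM in immune control libraries without overlap (0.91 ± 0.33, adjusted p = 0.222, and 0.85 without stretched 2 and control 4). In stromal cells Fgl2 had 2708 ± 686 CPM after stretching, against 1350 ± 514 CPM in controls (1.02 ± 0.31, adjusted p = 0.0743, and 0.93 without stretched 7 and 8). Without stromal control 4, stromal Pros1, F2r and Fgl2 passed the test (0.94, 1.17 and 1.25, adjusted p = 0.0375, 0.0375 and 0.0497). Of the 16 alternatives, they passed in only 3, 4 and 3, with adjusted p up to 0.8775, 0.426 and 0.6152. The lowest log2 fold changes there were 0.302, 1.174 and 0.84. For the difference of the stretch effects, 0 of 19 were called by edgeR and 4 had an unadjusted p under 0.05, as had 23.1% of all genes.

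Between the fractions, of 16 genes tested in stretched skin 6 were called higher and 8 lower in immune cells, and of 15 tested in control skin 6 were called higher and 7 lower. Over all genes tested, 49% were called in stretched and 49.4% in control skin. The clotting factor genes F5, F7, F10 and F13a1 were higher in immune cells in both, with Vwf and F2rl2. Summed blood endothelial markers (Pecam1, Cdh5, Kdr, Emcn, Tie1 and Egfl7) averaged 142 CPM in immune and 49.7 CPM in stromal stretched libraries. In control skin they averaged 271 CPM in immune and 34.1 CPM in stromal libraries. The part of endothelial cells in the Vwf level was not tested. F13a1, the subunit that crosslinks fibrin, averaged 263 ± 70.1 CPM in immune stretched and 4.91 ± 2.31 CPM in stromal stretched libraries (log2 fold change 5.61 ± 0.43, edgeR adjusted p = 8.42e-06). The brakes Tfpi, Tfpi2, Thbd, Procr, Pros1 and Serping1 were lower in immune cells in both, as was Fgl2. Tfpi, the inhibitor of the tissue factor complex, averaged 18.9 ± 8.71 CPM in immune stretched and 76.2 ± 16.02 CPM in stromal stretched libraries (-2.14 ± 0.36, adjusted p = 0.00117). F3 and its inhibitor Tfpi were thus both lower in the immune than in the stromal fraction. F2r was called lower in immune cells in stretched skin.

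By Pearson's r of log2 CPM over the 16 libraries, among 8931 genes with a mean of at least 10 CPM, F3 was most like Dram1, Tmem65 and Serpina3c (0.95 each). Plat was most like Ces2g, Scara3 and Slc43a3 (0.98 each), and Serpine2 most like Mfge8 (0.97), Gjc1 (0.96) and Gnb4 (0.95). These r include the difference between the groups. Taken about the group means, r was 0.60 to 0.71 for the 3 genes of F3, 0.87 to 0.90 for those of Plat and 0.87 to 0.88 for those of Serpine2. Plaur was most like Btg1 (0.96), Nab1 and Rabgef1 (0.95 each). Plau was most like Nfxl1, Fndc3a and Dnajc13 (0.84 each), and Serpinb2 most like Scamp1, Txnip (0.77 each) and Ostm1 (0.73). By r over the 16 libraries, no gene followed Plau or Serpinb2 as closely. About the group means, r was 0.908 to 0.925 for the genes of Plaur. It was 0.764 to 0.831 for those of Plau and 0.725 to 0.794 for those of Serpinb2, above the range for F3.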

How the data were processed

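Bulk RNA sequencing was run on 16 samples of sorted mouse skin cells. The SMART-Seq mRNA LP and Nextera XT kits were used, per the labels' protocols. FastQC 0.11.9, STAR (no version given) and the mouse build mm10 are named, per the submitters' processing notes. The authors deposited raw counts per Ensembl gene, with no normalization. Which counting tool, strand setting and annotation release were used is not given in the sources used here. Of the 55487 gene IDs, 55394 matched GENCODE M21 (GRCm38), which gave symbols, positions and exon lengths. Every column matched 1 sample by its label, and 0 columns were left over.

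For each comparison only the groups it names were fitted, with edgeR 4.0.16 (R 4.3.3). Low genes were removed by filterByExpr with a minimum count of 10 and a minimum total of 15. The fit used TMM scaling, the quasi-likelihood F test without covariates and Benjamini-Hochberg adjustment over all genes tested, called under 0.05. All 6 members passed this filter in all 5 comparisons. Standard errors come from the F statistic. Printed CPM are TMM-scaled over all 16 libraries, so ratios of means differ somewhat from fitted fold changes. Total counts were 2645421 to 26944965 per library, and reads copied by PCR without molecular identifiers do not count molecules. Within groups, the chi-square per degree of freedom between 2 libraries was 28.1 to 280.1, so none was a copy of another.

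Alternatives were RLE scaling, DESeq2 1.42.0, no filter, all 16 libraries in 1 fit, a replicate block, length and GC offsets, thinned counts, leaving out immune control 4, stromal stretched 7 and 8 and immune stretched 2, and leaving out each library. For list genes named with values these were added after seeing the data. Named genes were the members, list genes that were called or had the smallest p, and the 3 genes most correlated with each member. The members and lists were chosen with earlier results of these data known. Protein sequences and the promoters of Plau and Plat were not used here. Of the called list genes, 1 is counted but not reported by name here.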

Additional observations from a re-analysis of the deposited data

Results flagged for a closer look

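In 5 of the 24 sets of 4 libraries (6 genes in 4 groups), 1 library stood apart from the other 3 by more than the critical value of Dixon's test for 4 values (gap over range, 95% level), which chance passes in about 1 in 20 sets. Stromal control 4 stood apart for 2 genes, at 19.6 CPM for Plau, where the other 3 controls had 6.57 to 7.11 CPM, and at 1388 CPM for Plat, where they had 307 to 367 CPM. Immune stretched 1 stood at 20.4 CPM for Plau, where the other 3 stretched libraries had 12.5 to 13.3 CPM. Immune stretched 2 stood at 2073 CPM for Plaur, where the others had 610.2 to 666 CPM. Immune control 3 stood at 203 CPM for Serpinb2, where the others had 8.34 to 38.2 CPM.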

How the results depend on the processing

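Of 522 values of the 30 member results under an alternative, 457 kept their direction and their side of the threshold, 18 lost the call, 6 gained it and 41 changed sign; the causes were not tested. The count of all genes called after stretching in stromal cells was 800, and became 2312 with DESeq2, 2115 with no filter, 4 with length and GC offsets, and 0 with all 16 libraries in 1 fit, with the replicate block and without the doubtful libraries (the 4 that stood apart). In immune cells it was 0, and became 781 with DESeq2, 667 in the 16-library fit (1 member called in each, F3) and 21 without the doubtful libraries. For the difference of the effects it was 0, and became 1625 with DESeq2, 3924 with no filter, 15 with the block, 30 with thinned counts and 4 without the doubtful libraries.

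The smallest counts of a member in a library were 46 reads for Serpinb2 (stromal control 3) and 60 for Plau (immune stretched 2). Leaving out each library gave 0 to 2 members and 0 to 1589 genes in stromal cells, 0 to 1 members and 0 to 45 genes in immune cells, and 0 members and 0 to 1495 genes for the difference. Immune against stromal control gave 3 to 5 members and 6366 to 8566 genes, and immune against stromal stretched 4 members and 7002 to 8222 genes.

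Same-numbered libraries of the stromal and immune fractions correlated by -0.12 to 0.16 in their deviations from the group means. Different cell fractions of the same animal need not share such deviations, so these values cannot decide whether the numbers pair the samples. The replicate block left 3 members in immune against stromal control, as did no filter, where the count had been 5, and 4547 genes in immune against stromal stretched, where it had been 8380; Serpine2 there did not pass (-1.39, adjusted p = 0.0595).

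Changes of sign were as follows. Stromal Plau was -0.34 and Plat -0.39 with the block, and -0.82 and -0.031 without the doubtful libraries. Immune Serpinb2 was 0.055 with no filter, 0.067 in the 16-library fit and 1.76 with the block. For the difference, Serpinb2 was -0.13 with RLE and with DESeq2, -0.067 with no filter, -0.77 with the block, -0.18 with offsets and -0.63 without the doubtful libraries, where Plau was 0.13 and Plaur -0.091. Serpinb2 in immune against stromal stretched was -0.12 with offsets. With 1 library left out, stromal Plau ran from -0.26 to 0.62, Plat from -0.002 to 1.09, Serpine2 from -0.16 to 0.42 and Serpinb2 from -0.28 to 1.53, and immune Serpinb2 from -0.46 to 1.57. For the difference, Plat ran from -0.10 to 1.21, Serpine2 from -0.11 to 0.72 and Serpinb2 from -1.64 to 1.51. Serpinb2 in immune against stromal control ran from -1.11 to 2.01.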
